A study of Mus musculus with 9 samples.

Results

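The BCL2 family decides whether a cell commits to the mitochondrial route of apoptosis, and 10 of its mouse genes were followed here across a knockdown of Yap1 in 4T1 cells. They were chosen by symbol, as the central guardians (Bcl2, Bcl2l1, Mcl1), the effectors (Bax, Bak1) and the sensors that carry only a BH3 domain (Bid, Bad, Bbc3, Pmaip1, Bcl2l11). Rows were found through the GENCODE vM21 symbol of each Ensembl identifier, which gave 9 of the 10 genes among 15926 genes with a value in both deposited tables; Pmaip1 was not analysed here. 4T1 is a mouse mammary carcinoma line. The 9 RNA-seq libraries form 3 groups of 3: shCTRL (genotype WT, treated with a negative control hairpin), shYap-1 and shYap-2, both labelled as Yap knockdowns with different hairpins. All groups are the same cell line, and the labels name no other agent, no time after knockdown, no clone and no separate cultures. The spread between libraries, and every p-value resting on it, may therefore be technical.

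Guardian proteins such as BCL2, BCL-XL and MCL1 sit on the outer mitochondrial membrane and hold the effectors BAX and BAK in check. When active effectors assemble in that membrane, cytochrome c escapes into the cytosol, binds APAF1 and starts the caspase cascade. The sensors respond to different kinds of stress: they occupy the groove of the guardians through their BH3 helix, and some also activate the effectors directly. In tumour cells the balance between these classes sets how readily a stress or a drug kills.

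Bad had the highest ratio of knockdown to control FPKM among the members, so the 250 bases before its start site are shown (RefSeq, GRCm38.p6, plus strand, chr19:6941611-6941860). Their GC content was 62.8%.
Bad: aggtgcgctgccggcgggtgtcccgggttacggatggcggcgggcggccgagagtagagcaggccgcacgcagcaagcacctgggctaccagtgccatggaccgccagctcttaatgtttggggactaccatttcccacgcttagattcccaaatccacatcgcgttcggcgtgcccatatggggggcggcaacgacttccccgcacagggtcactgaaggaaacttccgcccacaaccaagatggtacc
The 15 RefSeq promoters of the 9 members, each from 250 bases before to 50 after a start site, were searched on both strands for 4 motifs. These were the TEAD motif CATTCC, bound by the DNA-binding partners of YAP, an interferon response core (GAAA, any 2 bases, GAAA), an ATF4/CHOP element TGATGNAA and the E-box CACGTG. The TEAD motif was in 2 of the 15, where 14.7% of all 32851 mouse promoters hold it, and the E-box was in 2, where 7.15% hold it. Neither the interferon response core (3.44% of all promoters) nor the ATF4/CHOP element (3.97%) was in any of the 15. The 4 member promoters with a match are shown around it, with the motif in capitals and 12 bases on each side; these windows were picked after the matches were seen.
Bcl2l1: aactagattgaaGGAATGtgaaccataaac
Mcl1: ccgagcaggaacCATTCCccgggaagccaa
Bax: agcgatgatgatCACGTGactagtcctgcg
Bbc3: gcggggcgggcgCACGTGgcggcgtcgagg
The Bcl2l1 window is chr2:152831819-152831848 on the minus strand, and its motif, read on the other strand, begins 108 bases before the most upstream of 3 starts. That of Mcl1 is chr3:95658510-95658539 on the plus strand, with the motif beginning 199 bases before the start. The Bax window is chr7:45466890-45466919 on the minus strand, 9 bases before the start, and another E-box lies 35 bases after it. For Bbc3 it is chr7:16310355-16310384 on the plus strand, 64 bases before 1 of 3 starts. A match is a string of letters and not a bound site.

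Abundance is given as FPKM, fragments per kilobase of transcript per M mapped fragments, so levels can be set beside each other between genes. Estimated depth was 19.55 to 28.3 M fragments per library. Yap1 itself fell from 49.3, 48.3 and 48.8 FPKM in shCTRL to between 8.03 and 9.23 under shYap-1 and between 9.79 and 11.04 under shYap-2. All 5 epithelial markers examined were present, with sums of 1892 to 1996 FPKM in shCTRL, 2197 to 2474 under shYap-1 and 2304 to 2325 under shYap-2. They did not move together. By group mean, Krt8 (638.9, 1017 and 988 FPKM) and Krt19 (47.9, 130.3 and 108.3) were higher in the knockdowns, and Krt18 was lower (882.7, 772.4 and 829.5). Epcam had means of 171.7, 162.3 and 179.2 FPKM and Cdh1 of 204.8, 221.4 and 212.7. Of 7 leukocyte markers, 6 had values and only Cd68 exceeded a mean of 1 FPKM (list sums 8.04 to 8.33, 4.53 to 5.39 and 4.58 to 5.14). Cd68 made up most of these sums and was lower in the knockdown libraries, whereas Ptprc (0.01 to 0.03 FPKM in shCTRL, 0.07 to 0.14 in the others) and Itgam (0 to 0.03 and 0.08 to 0.28) were higher, and Adgre1 was at 0.01 or below throughout. Of 7 fibroblast and endothelial markers only Pdgfra exceeded a mean of 1 FPKM (list sums 3.88 to 4.46, 2.29 to 2.81 and 2.3 to 3.01), with Kdr at 0.01 or below. Pdgfra made up most of these sums and was lower in the knockdown libraries. Col1a1 was higher there (0.15 to 0.23 FPKM in shCTRL, 0.27 to 0.55 in the others), and the rest of this list overlapped between groups. The part of these shifts in the results was not tested. Each library was also set against the mean of the other 2 in its group, and these deviations followed gene GC content in several libraries. The Spearman rho across 10733 genes was largest in shYap-1 replicate 2, at 0.706. It was -0.641 and -0.555 in shYap-1 replicates 1 and 3, which have replicate 2 in their reference. In shCTRL replicates 1, 2 and 3 it was -0.38, 0.00537 and 0.386, and under shYap-2 -0.194, 0.0924 and 0.0944. Each hairpin was compared with shCTRL by limma on log2(FPKM + 1), and genes with a Benjamini-Hochberg adjusted p under 0.05 over all genes tested are called. This scale understates the change of low genes. Much of the transcriptome differed between knockdown and control libraries. Under shYap-1, 65.2% of 10647 genes tested were called (37.6% rose, 27.6% fell), and under shYap-2 73.7% of 10615 (43.2% rose, 30.5% fell). Rises were 57.6% and 58.6% of the calls as deposited, and 46.4% and 47.6% with trimmed-mean scaling, which moved the median of all genes from 0.07 to -0.05 under shYap-1 and from 0.08 to -0.03 under shYap-2.

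All 9 members passed the filter on low values. Under shYap-1, 8 of 9 were called (5 rose, 3 fell), beside 65.2% of all genes, and under shYap-2 all 9 were called (5 rose, 4 fell), beside 73.7%. The median member change was 0.26 and 0.19, where the median of all genes was 0.07 and 0.08. Both member medians are the values of Bax, which had 0.04 and -0.02 with the GC trend removed. The same 5 genes rose with either hairpin, namely Bax, Bak1, Bid, Bad and Bcl2l11, and Bcl2, Bcl2l1 and Bbc3 fell with both. For the mean of both hairpins all 9 were called, beside 71.4% of 10733 genes (41.5% rose, 29.9% fell). The hairpins share their shCTRL libraries, so their values stand side by side and are not independent. In every member the 3 values of each hairpin lay wholly above (5 genes) or wholly below (4 genes) those of shCTRL. Over all genes tested this was true of 71.2% under shYap-1 (40.5% above, 30.6% below) and 76.6% under shYap-2 (44.7% above, 31.8% below). An exact two-sided permutation test of 3 libraries against 3 gave p = 0.1 for each member, the smallest it can give, so smaller p-values rest on the model.

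**Figure D1:**
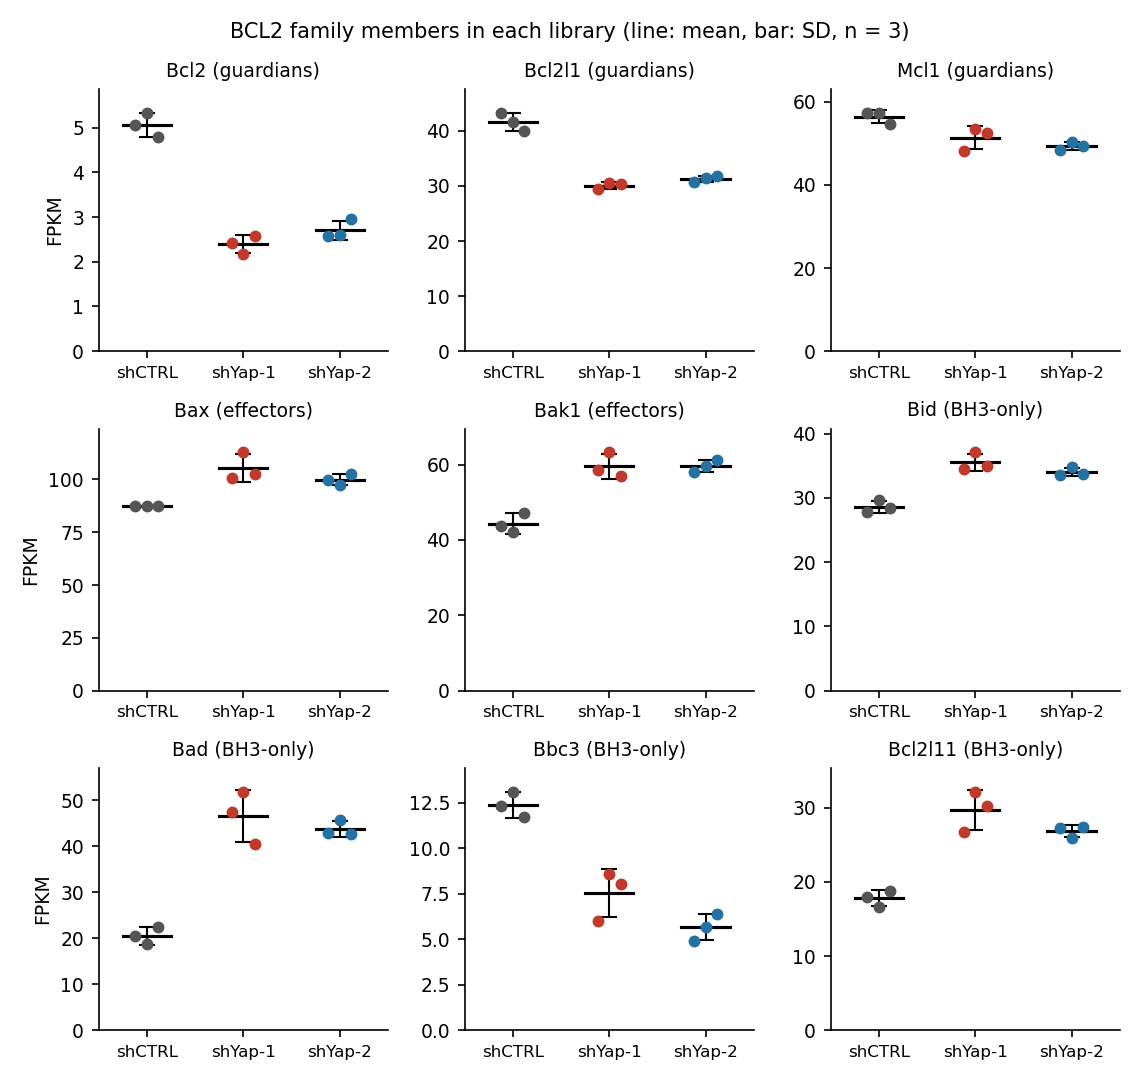
FPKM of the 9 members (vertical axes, each from 0) in the 9 libraries by group; dots are libraries, lines are means and bars are SD (n = 3). Bcl2, Bcl2l1, Mcl1 and Bbc3 are lower with both hairpins and the other 5 members are higher, with no overlap between shCTRL and either hairpin.

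Bcl2 and Bcl2l1 fell with both hairpins, Bcl2 most, and Mcl1 fell under shYap-2. Bcl2, the founding member of the family, whose protein binds sensors such as BIM, was the scarcest of the 9 genes. Its FPKM was 5.05, 5.33 and 4.8 in shCTRL, 2.43, 2.17 and 2.58 under shYap-1, and 2.58, 2.59 and 2.95 under shYap-2. Every knockdown library was below every control library, and the hairpins overlapped each other. Group means of FPKM were 5.06 ± 0.265 in the controls, 2.39 ± 0.207 under shYap-1 and 2.71 ± 0.211 under shYap-2 (mean ± SD, n = 3 each), which is 0.473 and 0.535 of the control. On the log2 scale Bcl2 fell by 0.84 under shYap-1 (SE 0.0859, limma adjusted p = 0.000113) and by 0.71 under shYap-2 (SE 0.0751, limma adjusted p = 2.49e-05). Bcl2 (chr1:106538178-106714274, minus strand, GRCm38) shares 558 exonic bases with the antisense gene D630008O14Rik, which has no value here. Whether the authors' values use strand is not given in the sources used here.

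Bcl2l1 encodes BCL-XL and, by alternative splicing, the shorter pro-apoptotic BCL-XS; a gene-level FPKM does not separate them. The shCTRL libraries had 43.3, 41.6 and 39.9 FPKM, those under shYap-1 had 29.4, 30.5 and 30.3, and those under shYap-2 had 30.8, 31.4 and 31.8. The knockdown libraries lay within 2.44 FPKM of each other and all below the controls. The mean FPKM went from 41.6 ± 1.67 to 30.1 ± 0.605 and 31.3 ± 0.525 (mean ± SD, n = 3 each). Bcl2l1 (chr2:152780668-152831728, minus strand) fell by 0.46 (SE 0.0584, limma adjusted p = 0.000347) and 0.40 (SE 0.0417, limma adjusted p = 2.34e-05). With the trend on GC content removed from each library the falls were larger, -0.72 and -0.63.

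Mcl1, whose short-lived protein binds BIM, NOXA and BAK, was the most abundant guardian and moved least. It had 57.4, 57.3 and 54.8 FPKM in shCTRL, 48.2, 53.4 and 52.5 under shYap-1, and 48.3, 50.3 and 49.3 under shYap-2. All knockdown values were below all control values, but shYap-1 replicate 2 came within 1.41 FPKM of the lowest control. Means by group were 56.5 ± 1.47 in the controls, 51.4 ± 2.78 under shYap-1 and 49.3 ± 1.01 under shYap-2 (mean ± SD, n = 3 each). Mcl1 (chr3:95658788-95663176, plus strand) fell by 0.19 under shYap-2 (SE 0.0364, limma adjusted p = 0.00108). Under shYap-1 its change was -0.14 (SE 0.0613, limma adjusted p = 0.0872), which did not pass. It passed with trimmed-mean scaling (-0.27), with median-of-ratios scaling (-0.25), with the GC trend removed (-0.18), without shYap-1 replicate 2 (-0.16, adjusted p = 0.0211) and with all 9 libraries in 1 fit (-0.14, adjusted p = 0.0387).

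Both effector genes rose, Bak1 more than Bax. Bax, whose protein is mostly cytosolic until it is activated and inserts into the mitochondrial membrane, was the most abundant member in every library. Its FPKM was 87.5, 87.2 and 87.5 in shCTRL, 101, 113 and 102 under shYap-1, and 99.6, 97.5 and 103 under shYap-2. The controls were nearly identical, the knockdown libraries were all higher, and shYap-1 replicate 2 was the highest of all. On average Bax had 87.4 ± 0.187 in the controls, 105.2 ± 6.64 under shYap-1 and 99.9 ± 2.51 under shYap-2 FPKM (mean ± SD, n = 3 each), ratios to shCTRL of 1.2 and 1.14. Bax (chr7:45461697-45466898, minus strand) rose by 0.26 under shYap-1 (SE 0.0602, limma adjusted p = 0.00612) and by 0.19 under shYap-2 (SE 0.0316, limma adjusted p = 0.000472). These calls depended on how libraries were scaled. Under shYap-1 they ended under trimmed-mean scaling (0.13), median-of-ratios scaling (0.15) and removal of the GC trend (0.04), and under shYap-2 under trimmed-mean scaling (0.08) and removal of the GC trend, where the sign turned (-0.02). The GC content of its longest transcript was 63.5%, against a median of 49.8% over the genes in the tables. Bax shares 192 exonic bases on the same strand with Gm45808, which has no value here, and the part of this overlap was not tested.

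Bak1 encodes BAK, the effector that resides on the mitochondrial membrane at all times. It had 43.8, 42.0 and 47.3 FPKM in shCTRL, 58.6, 63.3 and 56.9 under shYap-1, and 57.9, 59.6 and 61.2 under shYap-2. The hairpin groups overlapped each other, and all their values were above the controls. Mean FPKM was 44.4 ± 2.68 in the controls, 59.6 ± 3.3 under shYap-1 and 59.6 ± 1.62 under shYap-2 (mean ± SD, n = 3 each). Bak1 (chr17:27019810-27029009, minus strand) rose by 0.42 under shYap-1 (SE 0.0696, limma adjusted p = 0.0013) and by 0.42 under shYap-2 (SE 0.048, limma adjusted p = 4.26e-05), or by 0.15 and 0.18 with the GC trend removed, which were still called. Its exons share 177 and 437 bases with 2 annotated genes named Ggnbp1 on the opposite strand. Values were taken for a single Ggnbp1 identifier, with mean FPKM of 0.84, 2.98 and 2.68 in the 3 groups. The part of this overlap in the Bak1 result was not tested.

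Among the sensors with only a BH3 domain, 3 of the 4 measured rose and Bbc3 fell. Bad, a sensor that binds BCL-XL and BCL2 and is held by 14-3-3 proteins when survival kinases phosphorylate it, rose with both hairpins. It had 20.4, 18.7 and 22.5 FPKM in shCTRL, 47.5, 51.8 and 40.5 under shYap-1, and 42.8, 45.7 and 42.6 under shYap-2. The lowest knockdown library was 17.95 FPKM above the highest control. The groups averaged 20.5 ± 1.93 in the controls, 46.6 ± 5.71 under shYap-1 and 43.7 ± 1.69 under shYap-2 (mean ± SD, n = 3 each), ratios to shCTRL of 2.27 and 2.13. Bad (chr19:6941861-6951899, plus strand) rose by 1.14 under shYap-1 (SE 0.1071, limma adjusted p = 7.37e-05) and by 1.06 under shYap-2 (SE 0.0651, limma adjusted p = 7.07e-07). It stayed called under every alternative tried, between 0.87 and 1.24 under shYap-1 and between 0.82 and 1.12 under shYap-2. Bad shares 524 exonic bases with Gpr137 on the opposite strand, whose mean FPKM was 4.09, 5.84 and 5.62 in the 3 groups; its part in the result was not tested.

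Bcl2l11 encodes BIM, a sensor that binds every guardian and can activate BAX and BAK. Its FPKM was 18.02, 16.6 and 18.8 in shCTRL, 26.7, 32.2 and 30.2 under shYap-1, and 27.3, 25.9 and 27.4 under shYap-2. The highest control was at 18.8 and the lowest knockdown library at 25.9 FPKM. Averaged by group, the values were 17.8 ± 1.11 in the controls, 29.7 ± 2.75 under shYap-1 and 26.9 ± 0.821 under shYap-2 (mean ± SD, n = 3 each), ratios to shCTRL of 1.67 and 1.51. Bcl2l11 (chr2:128126038-128162547, plus strand) rose by 0.70 (SE 0.0868, limma adjusted p = 0.00029) and 0.57 (SE 0.054, limma adjusted p = 1.25e-05). The BIM isoforms of different length are not separated by these values.

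Bid encodes the sensor that caspase-8 cleaves downstream of death receptors. It had 27.7, 29.6 and 28.5 FPKM in shCTRL, 34.6, 37.1 and 34.9 under shYap-1, and 33.6, 34.8 and 33.7 under shYap-2. All knockdown libraries were higher than all controls. Group by group the mean was 28.6 ± 0.954 in the controls, 35.5 ± 1.37 under shYap-1 and 34.0 ± 0.674 under shYap-2 (mean ± SD, n = 3 each). Bid (chr6:120891930-120916853, minus strand) rose by 0.30 (SE 0.0606, limma adjusted p = 0.00327) and 0.24 (SE 0.0412, limma adjusted p = 0.00054), and by as little as 0.17 and 0.13 under the alternatives, still called. It shares 628 exonic bases with Bcl2l13, another family gene on the opposite strand.

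Bbc3, which encodes PUMA, a sensor known as a target of p53 and of stress factors such as CHOP, went the other way. It had 12.3, 13.1 and 11.7 FPKM in shCTRL, 6.02, 8.57 and 8.01 under shYap-1, and 4.92, 5.68 and 6.36 under shYap-2. All knockdown values were below all controls, and the hairpins overlapped only between shYap-1 replicate 1 and shYap-2 replicate 3. Mean levels were 12.4 ± 0.692 in the controls, 7.53 ± 1.34 under shYap-1 and 5.65 ± 0.72 under shYap-2 (mean ± SD, n = 3 each), ratios to shCTRL of 0.609 and 0.457. Bbc3 (chr7:16308393-16318205, plus strand) fell by 0.66 under shYap-1 (SE 0.124, limma adjusted p = 0.0024) and by 1.01 under shYap-2 (SE 0.0851, limma adjusted p = 5.35e-06). Both calls held under every alternative tried.

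**Figure D2:**
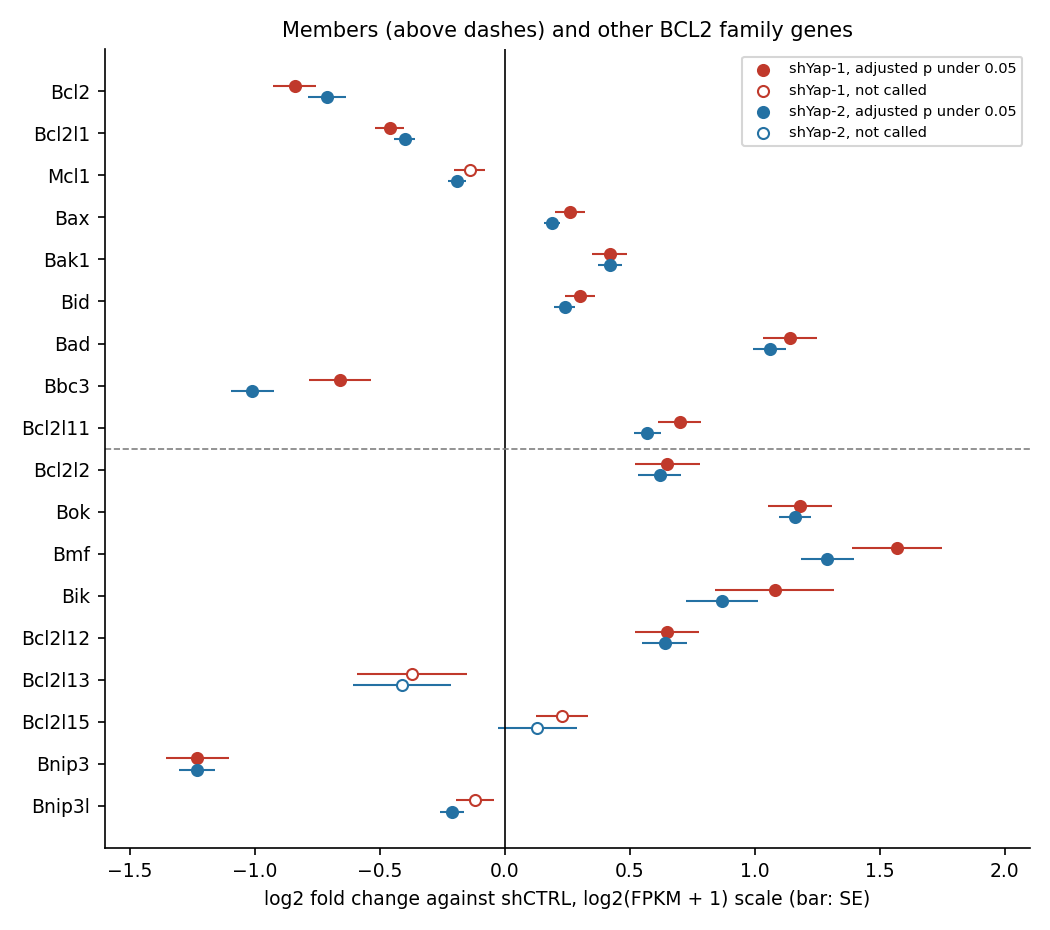
Log2 fold change against shCTRL on the log2(FPKM + 1) scale (horizontal axis, bars: SE) for the 9 members, above the dashed line, and the 9 other family genes tested; red is shYap-1, blue is shYap-2 and open dots did not pass. Bad (1.14 and 1.06), Bok (1.18 and 1.16) and Bmf (1.57 and 1.29) lie farthest right, and Bnip3 (-1.23 and -1.23) farthest left.

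The order of the levels changed within the family. In shCTRL it ran from Bax over Mcl1, Bak1, Bcl2l1, Bid, Bad, Bcl2l11 and Bbc3 down to Bcl2. The 3 values of Bak1 and Bcl2l1 overlapped there, as did those of Bad and Bcl2l11; all other neighbours were apart. With either hairpin the order was Bax, Bak1, Mcl1, Bad, Bid, Bcl2l1, Bcl2l11, Bbc3 and Bcl2. Values of Mcl1 and Bad overlapped under shYap-1, as did those of Bcl2l1 and Bcl2l11, and no neighbours overlapped under shYap-2. Bad thus stood 6th in shCTRL and 4th with each hairpin, while Bcl2l1 moved from 4th to 6th. These orders were taken on values as deposited, and none was made with the GC trend removed. With that trend removed the rise of Bak1, which passed Mcl1 here, was 0.15 and 0.18, against 0.42 with each hairpin as deposited.

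Summed by role over the 9 members, guardians had a smaller share of the summed FPKM after knockdown. The guardian Bcl2l2 and the effector-like Bok, given below, both rose and are not in these sums. The sensor sum includes Bbc3, which fell. Of the summed FPKM of the 9 members, guardians held 33.5%, 33.5% and 31.5% in shCTRL, 22.6%, 21.97% and 23.8% under shYap-1, and 23.5%, 23.9% and 23.5% under shYap-2. The highest knockdown library was 7.65 percentage points below the lowest control. The sums of guardian FPKM were 103.2 ± 3.22, 83.8 ± 3.33 and 83.4 ± 1.46 (mean ± SD, n = 3 each). The 4 sensors went from 79.3 ± 1.91 FPKM to 119.3 ± 8.9 and 110.3 ± 1.72 (mean ± SD, n = 3 each), and their mean share from 25.3% to 32.4% and 31.2%. The effectors' sum went from 131.7 ± 2.85 FPKM to 164.8 ± 9.75 and 159.5 ± 3.69 (mean ± SD, n = 3 each), while their mean share went from 41.9% to 44.8% and 45.2%. These are sums of transcript levels as deposited, without removal of a trend on GC content, and no test was made of them.

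**Figure D3:**
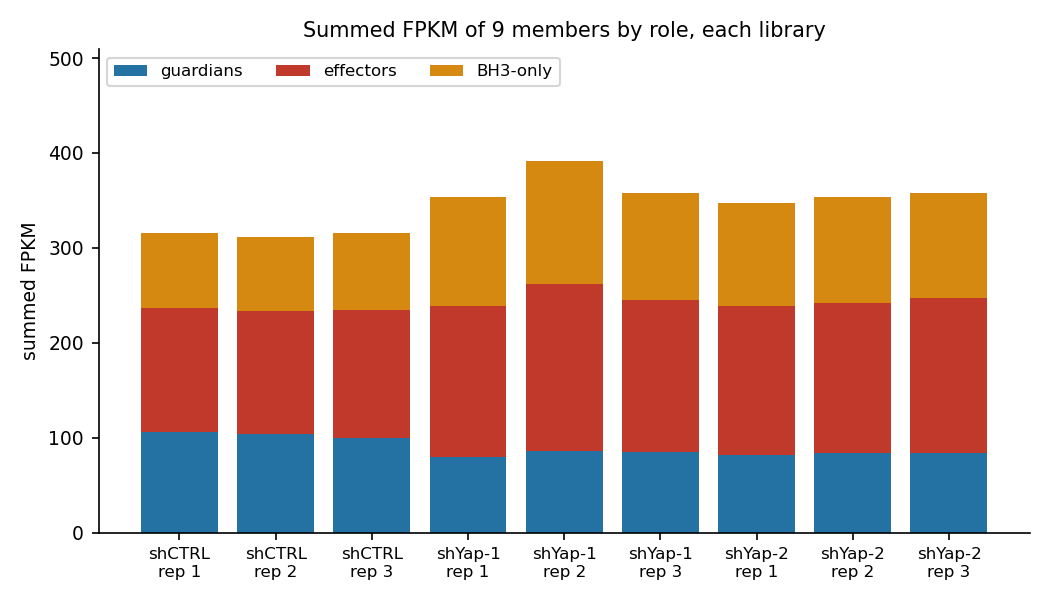
Summed FPKM of the 9 members in each library (vertical axis from 0), stacked by role. The blue guardian segment is 99.5 to 106 FPKM in shCTRL and 80.0 to 86.1 in the knockdown libraries, while the orange segment of sensors with only a BH3 domain is 78.0 to 81.5 in shCTRL and 109 to 130 in the others.

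Ratios within a library do not change with a factor common to all its genes, but a trend on GC content can move them. The longest transcript had 63.5% GC for Bax and 46.3% for Bcl2. With the GC trend removed, the log2 change of Bax was 0.04 under shYap-1 and -0.02 under shYap-2. No ratio was taken with that trend removed. The ratios given here were picked after the levels were seen and carry no test. The Bax over Bcl2 ratio of FPKM was 17.3, 16.4 and 18.2 in shCTRL, 41.4, 52.0 and 39.7 under shYap-1, and 38.6, 37.7 and 34.8 under shYap-2. The lowest knockdown ratio was 1.91 times the highest control ratio. Bad over Bcl2l1, the sensor beside a guardian it binds, was 0.471, 0.449 and 0.564 in shCTRL, 1.62, 1.70 and 1.34 under shYap-1, and 1.39, 1.45 and 1.34 under shYap-2. Bad was below Bcl2l1 in all controls and above it in all knockdown libraries. Bcl2l11 over Mcl1 was 0.316 ± 0.027 in shCTRL, 0.578 ± 0.024 under shYap-1 and 0.545 ± 0.026 under shYap-2 (mean ± SD, n = 3 each). In bulk RNA, fewer cells that express a gene and less RNA per cell cannot be told apart.

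The hairpins were also tested directly against each other, in a fit of all 9 libraries where 3.29% of 10733 genes were called (1.93% higher and 1.36% lower under shYap-2). None of the 9 members was called (limma, 0 at an adjusted p under 0.05), and 1 had an unadjusted p under 0.05. That was Bbc3, lower under shYap-2 by 0.35 (95% interval of the log2 difference -0.63 to -0.08, limma adjusted p = 0.146). For the others the 95% intervals were -0.05 to 0.31 for Bcl2, -0.05 to 0.17 for Bcl2l1, -0.17 to 0.06 for Mcl1, -0.19 to 0.04 for Bax and -0.13 to 0.13 for Bak1. They were -0.17 to 0.05 for Bid, -0.29 to 0.13 for Bad and -0.30 to 0.03 for Bcl2l11. The remaining Yap1 was not called, with a log2 difference of 0.22 (limma adjusted p = 0.0992). Its values under shYap-2 (9.79 to 11.04 FPKM) nevertheless all lay above those under shYap-1 (8.03 to 9.23). The count of all genes called between hairpins rested on single libraries. It was 353 with all of them, 203, 179 and 184 without shCTRL replicates 1, 2 and 3, and 196, 1646 and 80 without shYap-1 replicates 1, 2 and 3. Without shYap-2 replicates 1, 2 and 3 it was 3, 1 and 1. The count of members stayed at 0 in each of these.

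**Figure D4:**
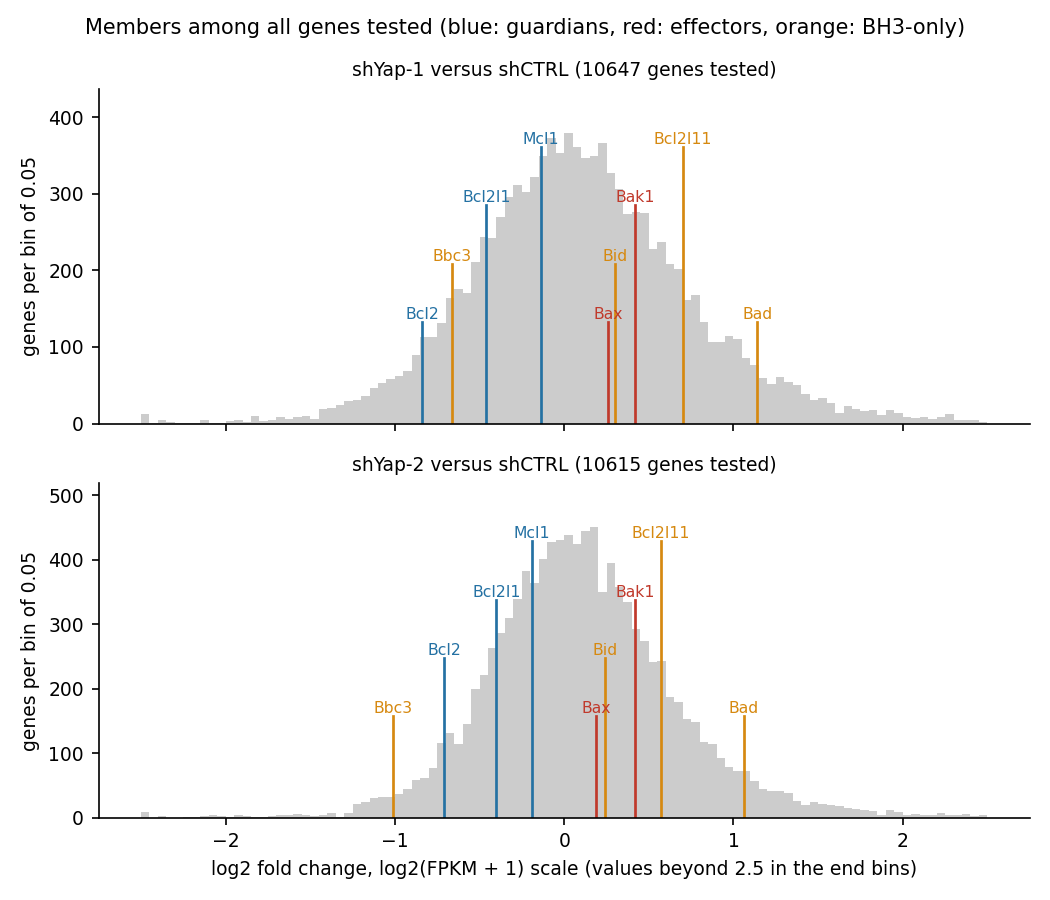
Number of genes per bin of 0.05 (vertical axis) by log2 fold change against shCTRL (horizontal axis, log2(FPKM + 1) scale) for all genes tested under shYap-1 (upper) and shYap-2 (lower), with the 9 members as labelled lines. Mcl1 and Bax lie near the bulk, whose median is 0.07 and 0.08, while Bad, Bcl2, Bbc3 and Bcl2l11 lie toward the flanks.

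Of 15 further family genes, 9 were tested. Under shYap-1, 5 rose, 1 fell and 3 did not pass (median 0.65), and under shYap-2, 5 rose, 2 fell and 2 did not pass (median 0.62), where the median of all genes was 0.07 and 0.08. These shares called are near those of all genes, 65.2% and 73.7%, and among all genes too rises outnumbered falls as deposited (37.6% against 27.6%, and 43.2% against 30.5%). Bok, an effector-like gene whose protein resides mainly on the endoplasmic reticulum, had a level close to that of Bak1 in shCTRL. Its libraries had 39.8, 41.2 and 47.8 FPKM in shCTRL, 89.1, 119 and 88.9 under shYap-1, and 96.3, 100.02 and 93.7 under shYap-2. The lowest knockdown library was 41.1 FPKM above the highest control. Bok rose by 1.18 (SE 0.1276, limma adjusted p = 0.00015) and 1.16 (SE 0.064, limma adjusted p = 3.75e-07).

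Bmf, a sensor tied to the dynein light chain DYNLL2 on the actin cytoskeleton, went from 1.38, 1.57 and 1.13 FPKM to 4.88, 8.32 and 5.23 under shYap-1 and to 5.5, 4.53 and 4.32 under shYap-2. The groups did not overlap, and shYap-1 replicate 2 was the highest. Bmf rose by 1.57 (limma adjusted p = 2e-04) and 1.29 (limma adjusted p = 4.29e-06). Bik, a sensor of the endoplasmic reticulum, was low, at 1.04, 0.51 and 0.45 FPKM in shCTRL, 1.74, 3.97 and 2.09 under shYap-1 and 2.04, 1.69 and 2.35 under shYap-2. Bik rose by 1.08 and 0.87 (limma adjusted p = 0.00514 and 0.000472), or by 1.81 and 1.54 with a pseudocount of 0.1, as its size depends on the pseudocount.

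One guardian rose. Bcl2l2, which encodes BCL-W, went from 12.9, 14.2 and 11.2 FPKM to 17.4, 23.8 and 21.1 under shYap-1 and to 21.9, 19.5 and 19.0 under shYap-2. No knockdown library reached down to the controls. The changes were 0.65 and 0.62 (limma adjusted p = 0.00314 and 0.000154), and Bcl2l2 shares 594 exonic bases on the same strand with Gm20521, so reads may be split between them. Bcl2l12 rose as well (0.65 and 0.64, limma adjusted p = 0.00306 and 0.000165).

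Bnip3, which encodes an atypical BH3 protein of mitophagy and the hypoxia response, fell with both hairpins. It had 40.8, 39.0 and 46.8 FPKM in shCTRL, 20.7, 14.8 and 17.01 under shYap-1, and 17.4, 16.2 and 18.5 under shYap-2. The highest knockdown library was 18.3 FPKM below the lowest control. Bnip3 fell by 1.23 with each hairpin (limma adjusted p = 0.000109 and 5.34e-07). Its relative Bnip3l, a mitophagy receptor gene, fell by 0.21 under shYap-2 (limma adjusted p = 0.00339) and had -0.12 under shYap-1 (limma adjusted p = 0.208; -0.25 and called with trimmed-mean scaling, -0.23 and called with median-of-ratios scaling). Bcl2l13 ranged from 31.5 to 51.9 FPKM within shCTRL and was not called (-0.37 and -0.41, limma adjusted p = 0.173 and 0.0881). It passed under shYap-2 under either scaling (-0.52 and -0.51), without shCTRL replicate 3 (-0.58) and without shYap-2 replicate 3 (-0.61), and under shYap-1 without shYap-1 replicate 1 (-0.58), with the replicate block (-0.37, limma adjusted p = 0.00491) and with the block and the GC trend removed (-0.44, limma adjusted p = 0.000563). Bcl2l15 stayed near 1 FPKM and was not called (0.23 and 0.13). It passed under shYap-1 with the GC trend removed (0.32) and without shYap-1 replicate 2 (0.29), and under shYap-2 without shYap-2 replicate 2 (0.32). Bcl2a1d, Bcl2l10, Hrk and Bcl2l14 were below the filter, and Bcl2a1a and Bcl2a1b were not analysed here.

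**Figure D5:**
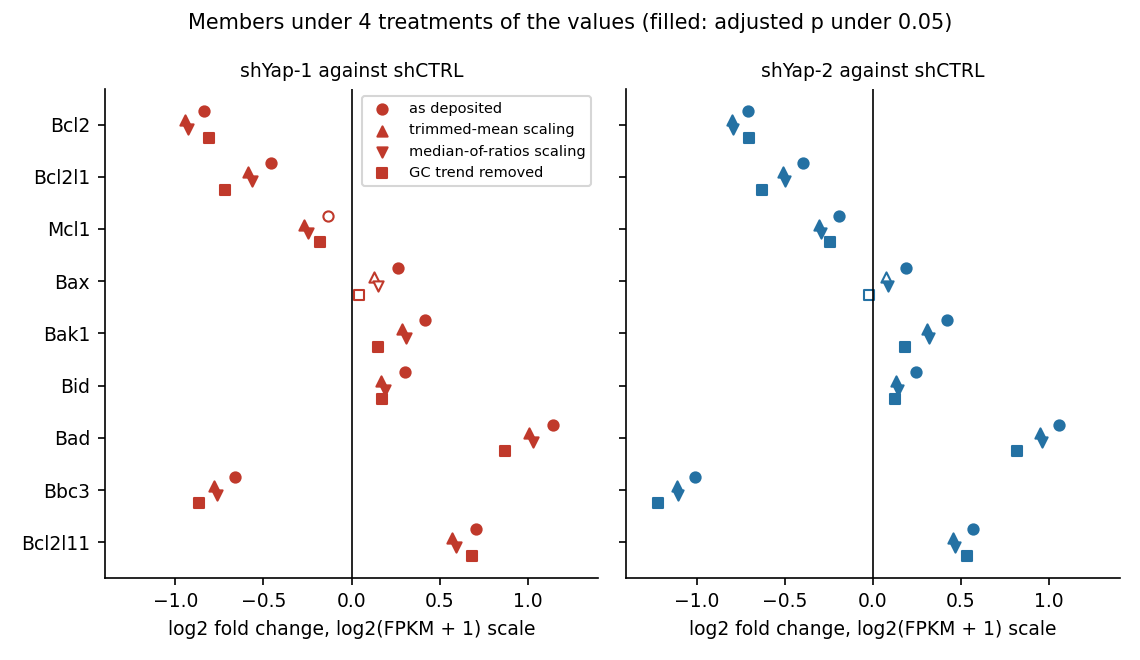
Log2 fold change of the 9 members (horizontal axis, log2(FPKM + 1) scale) under shYap-1 (left) and shYap-2 (right) for the values as deposited and for 3 alternatives; filled marks have an adjusted p under 0.05. Bax is the member whose mark reaches 0, at 0.04 and -0.02 with the GC trend removed, and Mcl1 under shYap-1 is open as deposited (-0.14).

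Downstream of the family, genes of mitochondrial release and the apoptosome moved in both directions. Of 19 tested, 5 rose, 7 fell and 7 did not pass under shYap-1 (median -0.04), and 7 rose, 6 fell and 6 did not pass under shYap-2 (median -0.01). The shares called are again near the 65.2% and 73.7% of all genes, whose medians were 0.07 and 0.08. The caspase gene Casp6 rose (0.75 and 0.69). Birc5, which encodes survivin, an inhibitor-of-apoptosis protein that also works in mitosis, fell by 0.57 and 0.29 (limma adjusted p = 0.000357 and 0.000855).

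Among 11 genes of transcription factors known to act on family genes, 10 were tested. Under shYap-1, 3 rose and 3 fell (median -0.07), and under shYap-2, 3 rose and 4 fell (median -0.11), beside 65.2% and 73.7% of all genes called. Atf4 and Ddit3, which encode the stress factors ATF4 and CHOP, fell: Atf4 had -1.84 and -1.78 and Ddit3 had -1.44 and -1.70 with the respective hairpins. Atf4 went from 287.5 ± 3.91 FPKM to 79.4 ± 4.09 and 82.9 ± 1.76 (mean ± SD, n = 3 each). Stat3, known to act on Bcl2l1 and Mcl1, rose by 1.35 and 1.21, and Nfkb1 fell by 0.30 and 0.26. Rela, another NF-kB gene of the list, named outside the rule, rose by 0.28 and 0.12. Trp53, named outside the rule after its values were seen, fell by 0.20 under shYap-2 (limma adjusted p = 0.00177) and had -0.12 under shYap-1 (limma adjusted p = 0.134). Under shYap-1 it passed with trimmed-mean scaling (-0.25), median-of-ratios scaling (-0.23) and the GC trend removed (-0.32).

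Of 10 targets of p53 outside the family, 6 rose, 1 fell and 3 did not pass under shYap-1 (median 0.38), and 6 rose, 3 fell and 1 did not pass under shYap-2 (median 0.33). Of all genes, 37.6% rose and 27.6% fell under shYap-1 and 43.2% rose and 30.5% fell under shYap-2, an excess of rises that turned with trimmed-mean scaling. Fas, a death receptor gene (1.83 and 1.51), Phlda3, an inhibitor of AKT (1.46 and 1.26), and Perp, a desmosome gene (1.33 and 1.06), rose. Sesn2, a stress sensor gene that ATF4 also controls, fell by 1.90 and 1.93.

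Proteins that bind family members or set their turnover were followed through 13 genes, of which 11 were tested. Under shYap-1, 4 rose and 5 fell (median -0.02), and under shYap-2, 5 rose and 5 fell (median 0.07). Over all genes 65.2% and 73.7% were called, with medians of 0.07 and 0.08. Akt1, whose kinase phosphorylates BAD, rose from 210.9 ± 8.05 FPKM to 409.7 ± 40.4 and 376.7 ± 1.33 (mean ± SD, n = 3 each), a log2 change of 0.95 and 0.83 (limma adjusted p = 3.71e-05 and 5.25e-08). Ywhae, a 14-3-3 gene, fell by 0.70 and 0.58, and Huwe1, a ubiquitin ligase gene that marks MCL1 for degradation, fell by 0.54 and 0.43. Dynll1, a dynein light chain gene whose protein binds BIM, rose by 0.50 and 0.52. Further genes of this list, named outside the rule, went other ways than Akt1 and Ywhae. The kinase genes Pim1 (-0.61 and -0.56) and Pim2 (-0.55 and -0.44) fell. Ywhaz, another 14-3-3 gene, had -0.02 under shYap-1, not called, and rose by 0.07 under shYap-2. The direction of Akt1, Ywhae, Huwe1 and Dynll1 against shCTRL was the same under every scaling tried. So was that of the genes named among downstream genes, transcription factors other than Rela, and p53 targets.

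Among 10457 genes compared, those with profiles most like a member's were found by the root mean square difference of log2(FPKM + 1) over the 9 libraries, each centred on its shCTRL mean. For Bad they were Pip5k1c (0.0755) and Evi5l (0.0818). Those nearest to Bbc3 were Sin3a (0.136) and Hs6st1 (0.137), and those nearest to Bcl2 were Zhx2 (0.0285) and Inpp5b (0.0466). With so many genes called, nearness of this kind is a description only.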

How the data were processed

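The authors deposited gene values as FPKM in 2 tables, one per hairpin, each with the same shCTRL libraries (0 shared values differ). The submitters' processing notes list RSEM, StringTie (version 1.3.4), HISAT2 (version 2.1.0), fastp (version 0.18.0) and build mm10, without roles; annotation, filters and strand use are not given in the sources used here. Per the labels' protocols, polyadenylated RNA was sequenced on a Novaseq6000. GENCODE vM21 gave symbols (16951 of 16962 identifiers), positions and overlaps. Depth was estimated from the steps between low FPKM values and covers counting error only.

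Testing took in genes that reached 1 FPKM in 3 or more fitted libraries and used limma (version 3.58.1, under R 4.3.3; lmFit and trended eBayes) on log2(FPKM + 1), within each table for shCTRL comparisons and over all 9 libraries for the mean of both hairpins and for shYap-2 against shYap-1. P-values were adjusted over all genes tested (Benjamini-Hochberg, threshold 0.05). Fits and depth were tested on simulated data. As alternatives the pseudocount was set to 0.1, the filter dropped or raised to 5 FPKM, and the fits repeated with trimmed-mean and median-of-ratios scaling, without the trend, with a replicate block, removal of a trend on GC content with and without that block, all 9 libraries in 1 fit and each library left out in turn.

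Members, lists and tests were chosen with earlier results of these data known. Named were all members, Yap1, other family genes of at least 1 FPKM in some group, up to 4 genes per further list, ranked by adjusted p in the comparison that averages both hairpins, and the 2 genes most like each of the 3 members that changed most. Trp53, Rela, Pim1, Pim2 and Ywhaz were named outside this rule. Tables and figures were made with Python 3.11.15, pandas 2.3.3 and matplotlib 3.10.9. Some genes counted in the list of mitochondrial release and apoptosome genes are not reported here by name.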

Additional observations from a re-analysis of the deposited data

Results flagged for a closer look

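Among the named genes, 2 differed between the hairpins in the direct test. Birc5 was higher with shYap-2 than with shYap-1 by 0.28 on the log2 scale (limma adjusted p = 0.0419), with 86.4, 86.7 and 86.5 FPKM against 72.5, 67.3 and 73.5. This call ended without a filter, without the trend in limma, with the replicate block, and without any one library other than shCTRL replicate 1 or shYap-1 replicate 2, with adjusted p from 0.0102 to 0.159 over the alternatives. Perp was lower with shYap-2 by 0.27 (value -0.27, limma adjusted p = 0.0108), with 211, 207 and 204 FPKM against 251, 253 and 248. Its call ended without shYap-2 replicate 1, 2 or 3. No member of the family was called in that test, and groups of 3 libraries were not tested for outlying libraries.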

How the results depend on the processing

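The count of members called stayed between 7 and 9 with shYap-1, between 8 and 9 with shYap-2 and for the mean of both hairpins, and at 0 between hairpins, over every alternative run; with FPKM of at least 5 required, Bcl2 was not tested. Over the members' log2 changes, 133 of 143 alternatives kept direction and call with shYap-1 (4 lost it, all Bax, and 6 gained it, all Mcl1) and 140 of 143 with shYap-2. For the mean of both hairpins 157 of 161 did, the exceptions being Bax under trimmed-mean scaling (0.10), median-of-ratios scaling (0.12) and removal of the GC trend (0.0023, with or without the block). Bax turned negative with shYap-2 when the GC trend was removed, with or without the replicate block (-0.0221). The difference of Bak1 between hairpins, 0.00, was -0.0102 without shYap-1 replicate 1, -0.0320 without shYap-1 replicate 3 and -0.0186 without shYap-2 replicate 3, within a range of -0.0320 to 0.0437 over the libraries left out. Bcl2l15 with shYap-2 ranged from -0.0120, without shYap-2 replicate 1, to 0.3233, without shYap-2 replicate 2. The uncalled epithelial marker Cdh1 (0.11 and 0.05) turned to -0.0254 and -0.0605 with trimmed-mean scaling, to -0.0023 and -0.0492 with median-of-ratios scaling and to -0.0002 and -0.0451 with the GC trend removed, with or without the block. The cause was not tested.

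Genes called between hairpins were 353, and 141 with the replicate block, 1177 with the GC trend removed, 970 with both, and 1 to 1646 when 1 library was left out. Their share of rises went from 58.6% to 68.1% with trimmed-mean scaling. Correlations of deviations between same-numbered libraries had no common sign, from -0.237 to 0.344, the highest being for replicate 1 of shCTRL and shYap-1. Differently numbered libraries were not compared in this way. The numbers were not taken as pairs in the main fits. The replicate block left the member counts at 8, 9, 9 and 0 and made Bcl2l13 a call with shYap-1 (-0.37, limma adjusted p = 0.00491). Bik and Bcl2l15 were low, at means of 0.667 and 1.02 FPKM in shCTRL, and low values carry more counting error.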
